A study of Danio rerio with 24 samples.

Results

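The genes described here are 10 members of the ATF4 branch of the stress response and of the amino acid response: atf4a, atf4b, ddit3, trib3, chac1, asns, sesn2, phgdh, psat1 and shmt2. They were chosen by name out of 28210 genes in the zebrafish liver count table, and all 10 were found. Of these, 9 passed the filter on low counts (counts above 100 in at least 3 fish), and phgdh did not. The question was whether transcripts of this branch differed in livers that made the Z variant of human antitrypsin, a secreted protease inhibitor whose Z form misfolds in the endoplasmic reticulum (ER) of liver cells.

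Cells that run short of amino acids, or whose ER is loaded with unfolded protein, phosphorylate the translation factor eIF2 through kinases such as GCN2 and PERK. General translation then slows, while the mRNA of ATF4, a basic leucine zipper (bZIP) transcription factor, is translated more, so that much of its control is not visible in its mRNA level. In mammals ATF4 switches on CHOP (the product of ddit3), TRIB3, CHAC1 and enzymes that make asparagine, serine and glycine. Zebrafish carry 2 copies of the factor, atf4a and atf4b.

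Livers came from fish 2 months post fertilisation, 6 of each of 4 genotypes. Z+ fish carried Tg(lfabp:eGFP-T2A-ZAAT), in which the liver promoter lfabp (fabp10a) drives green fluorescent protein and the human Z variant, and Z- fish were their non-transgenic siblings. A+ fish carried Tg(lfabp:eGFP-T2A-AAT), the same construct with wildtype human antitrypsin, and A- fish were the non-transgenic siblings of that line. Both lines were kept as heterozygotes and crossed to wildtype TU fish. Each genotype therefore rests on 1 transgenic line, and Z+ and A+ differ in line as well as in the protein made, which cannot be told apart in that comparison.

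Between 33898825 and 44715713 reads were counted per fish. Hepatocyte markers (10 genes, all detected) made up 3.80% to 12.4% of reads in Z+, 4.43% to 12.9% in Z-, 5.93% to 14.7% in A+ and 8.20% to 14.1% in A- livers, and the transgene entry of the table ran from 903 to 6890 counts scaled to 1000000 reads (CPM) in Z+ and from 1550 to 4870 in A+ fish, against at most 7.34 in Z- and 6.06 in A- fish. Several libraries stood apart. Vitellogenin, the egg yolk protein made by the female liver, took 51.6% of the reads of Z+ replicate 5 and 49.2% of those of Z- replicate 2, and A+ replicate 2 held egg transcripts (5420 RPM, reads per 1000000 counted reads, summed over 12 ovary and egg markers). Intestinal markers (8 genes) exceeded 1000 RPM in Z+ replicates 3 and 6, A+ replicate 5 and A- replicate 6. Exocrine pancreas markers (13 genes) ran from 48.5 RPM in Z- replicate 2 to 34400 RPM in A+ replicate 1, and also exceeded 10000 RPM in A- replicate 6 (21400) and Z- replicate 4 (13100). Markers of red cells, leukocytes and biliary epithelium were detected in every genotype. Counts of calls were repeated without each of these 3 sets of fish. In whole liver, fewer cells of a type and less RNA per cell cannot be told apart.

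Values below are CPM scaled by TMM, a method that corrects totals for composition. Fold changes are on the log2 scale with their standard error (SE), and an adjusted p is that of edgeR's quasi-likelihood test with Benjamini-Hochberg adjustment over 11801 genes. A gene was called at an adjusted p under 0.05.

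The transcripts of both copies of the upstream factor showed no difference between genotypes beyond the spread between fish. The copy atf4a had a lowest, median and highest value of 80.9, 114 and 160 CPM in Z+ livers, 88.0, 121 and 154 in Z-, 76.8, 106 and 186 in A+ and 91.1, 104 and 117 in A-. For atf4b the corresponding values were 98.0, 154 and 198 CPM in Z+, 112, 164 and 197 in Z-, 76.5, 140 and 207 in A+ and 112, 136 and 184 in A-. All 4 groups overlapped for both genes. For atf4a, Z+ compared with A+ gave 0.01 on the log2 scale (SE 0.20, adjusted p = 0.98, edgeR), and for atf4b 0.09 (SE 0.21, adjusted p = 0.82). The 95% interval of the difference ran from -0.41 to 0.43 for atf4a and from -0.35 to 0.52 for atf4b. Against Z- livers the changes in Z+ were -0.08 (adjusted p = 0.85) and -0.05 (adjusted p = 0.91). Neither gene was called in any of the 6 comparisons. These values concern mRNA, and the amount of the protein was not measured in these libraries.

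**Figure D1:**
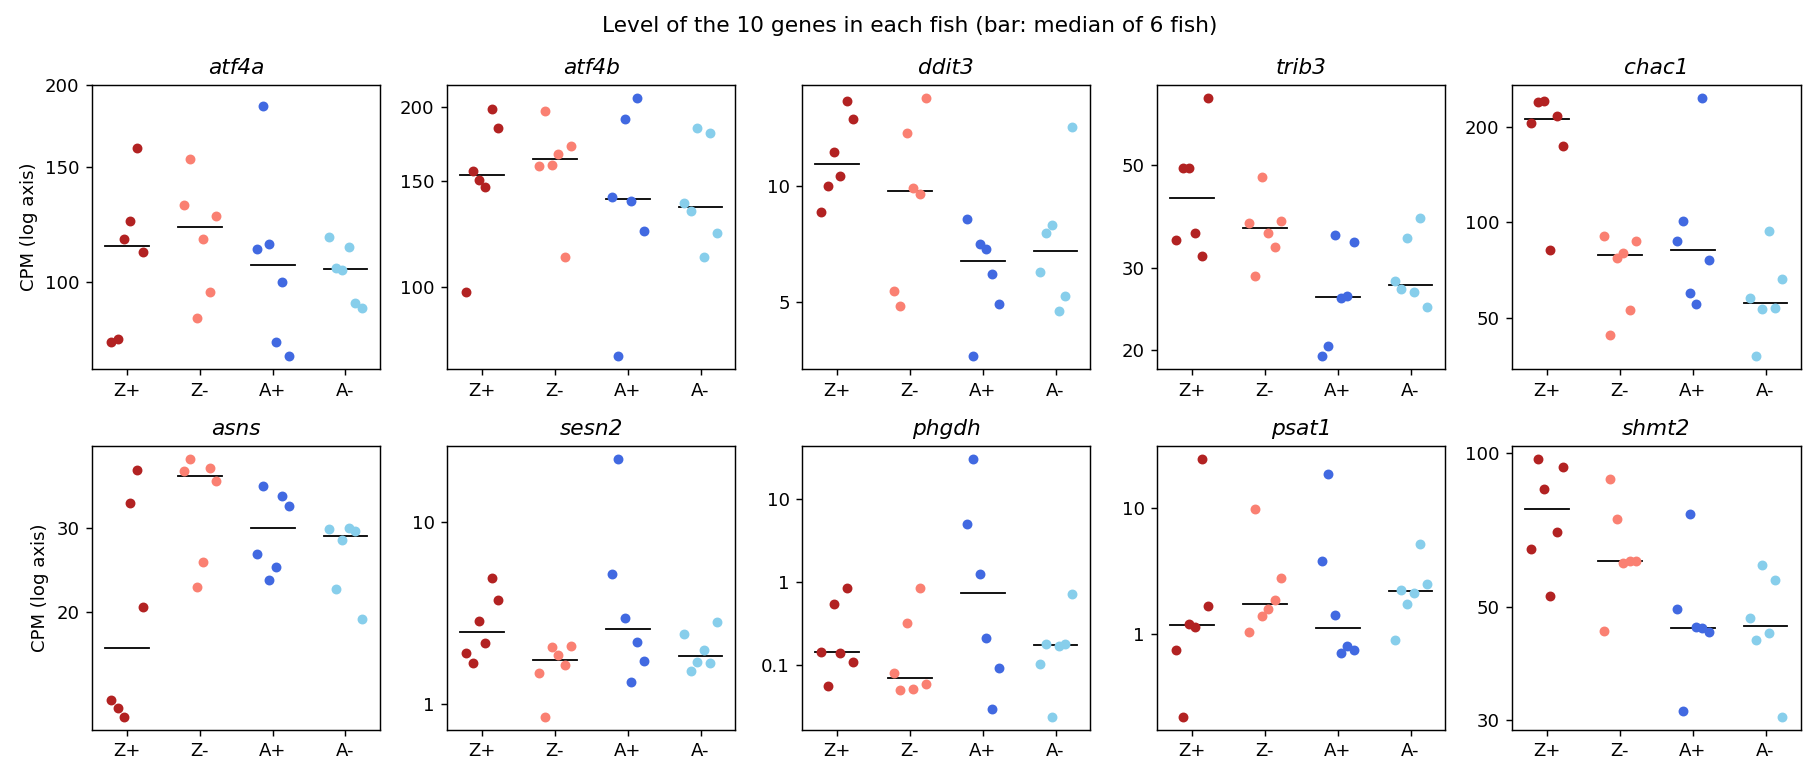
Each panel shows 1 gene, with the level in CPM on a log axis and a point for each of the 6 fish of Z+, Z-, A+ and A-. The black bar is the median of the group. For chac1, 5 of the 6 Z+ fish lie above every Z- fish, all 6 Z+ fish lie above every A+ fish for ddit3, and single fish set the top of sesn2, phgdh and psat1.

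The clearest change was in chac1, whose product breaks down glutathione and which ATF4 induces with CHOP in mammals. Its lowest, median and highest values were 81.7, 212 and 242 CPM in Z+ livers, 44.1, 78.6 and 90.8 in Z-, 55.1, 81.6 and 248 in A+ and 37.8, 55.7 and 93.8 in A-. In 5 of the 6 Z+ fish, chac1 stood at 175 CPM or more, above every Z- and A- fish, and Z+ replicate 4 lay among the Z- fish. It averaged 194 ± 60.4 CPM in Z+ and 72.1 ± 19.2 CPM in Z- livers (SD, n = 6 each). On the log2 scale this was a rise by 1.43 (SE 0.33, adjusted p = 0.0075, edgeR), and chac1 was the only one of the 9 tested genes called in Z+ compared with Z-, where 12.2% of all genes tested were called and 7% were called higher. Against the mean of Z- and A- livers the rise was 1.56 (SE 0.27, adjusted p = 0.00044), again with chac1 the only gene of the 9 called, beside 16.8% of all genes called and 9.16% called higher. The call against Z- held in all 24 fits that each left out 1 fish, with changes from 1.32 to 1.58, and was lost with scaling by library totals alone (1.28, adjusted p = 0.052).

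By mean, A+ livers (104 CPM) stood between the Z+ livers and the non-transgenic ones for chac1, which rests on 1 fish. The A+ median (81.6 CPM) was near that of Z- livers (78.6 CPM). Without the highest A+ fish the A+ mean was 75.8 CPM, beside 72.1 CPM in Z- livers. Z+ compared with A+ gave 0.89 (SE 0.33, adjusted p = 0.077), which did not pass the threshold. The A+ values lay between 55.1 and 101 CPM in 5 fish and at 248 CPM in A+ replicate 5, the highest of all 24 fish. That fish also carried intestinal markers at 1830 RPM. Without it, Z+ compared with A+ gave 1.36 (adjusted p = 0.0066), and without all 4 fish with such markers 1.29 (adjusted p = 0.018). Of the 24 fits that left out 1 fish, only that without A+ replicate 5 made this call. Changes over these fits ranged from 0.76 to 1.36, with adjusted p values up to 0.18. Of the Z+ fish, replicates 3 and 6 carried intestinal markers at 2530 and 2330 RPM, with chac1 at 242 and 175 CPM, and the other 3 high Z+ fish had at most 29.0 RPM, with chac1 between 206 and 241 CPM. A- replicate 6 had the most intestinal markers (6200 RPM) and chac1 at 66.3 CPM. The part of intestinal RNA in the A+ value was not tested further.

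A+ compared with A- gave 0.79 (SE 0.33, adjusted p = 0.12) for chac1, and 0.33 (adjusted p = 0.44) without A+ replicate 5. The step from non-transgenic to transgenic fish was larger in the Z line than in the A line by 0.64 (SE 0.46), with an interval from -0.33 to 1.60 and an adjusted p of 0.43, so a difference between the lines was not shown for this gene.

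Next in the branch stand ddit3, which encodes the transcription factor CHOP, and trib3, a pseudokinase that CHOP and ATF4 induce and that holds the response in check in mammals. Both were higher in Z+ than in A+ livers. For ddit3 the lowest, median and highest values were 8.55, 11.4 and 16.6 CPM in Z+, 4.88, 9.70 and 16.9 in Z-, 3.62, 6.38 and 8.22 in A+ and 4.73, 6.76 and 14.2 in A-. Every Z+ fish lay above every A+ fish, whereas Z- and A- fish spread into both ranges. The fold change in Z+ compared with A+ was 0.99 (SE 0.30, adjusted p = 0.038, edgeR). It was the only one of the 10 genes whose groups did not overlap in that comparison, and 3.33% of all genes tested showed no overlap in either direction.

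For trib3 the lowest, median and highest values were 31.8, 42.5 and 69.9 CPM in Z+, 28.8, 36.7 and 47.1 in Z-, 19.4, 26.0 and 35.3 in A+ and 24.7, 27.6 and 38.4 in A-. Z+ replicate 6 was the highest of all fish, and the Z+ and A+ ranges met only between 31.8 and 35.3 CPM. The change in Z+ compared with A+ was 0.75 (SE 0.19, adjusted p = 0.019). Neither gene was called against the fish's own non-transgenic siblings. Z+ compared with Z- gave 0.27 (SE 0.30, adjusted p = 0.61) for ddit3 and 0.29 (SE 0.19, adjusted p = 0.34) for trib3, with intervals from -0.36 to 0.90 and from -0.11 to 0.70. The other steps between the genotypes were not called either. Z- compared with A- gave 0.41 for ddit3 (adjusted p = 0.60) and 0.29 for trib3 (adjusted p = 0.53), and A+ compared with A- gave -0.31 (adjusted p = 0.54) and -0.16 (adjusted p = 0.64).

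With shmt2, the mitochondrial enzyme that turns serine into glycine and a one-carbon unit, 3 of the 9 tested genes were called in Z+ compared with A+, all of them higher, beside 11.8% of all genes called in either direction and 5.91% called higher. The values of shmt2 ran from 52.5 over a median of 77.5 to 97.5 CPM in Z+, from 44.8 over 61.4 to 89.1 in Z-, from 31.3 over 45.6 to 76.1 in A+ and from 30.5 over 46.0 to 60.5 in A-. A+ replicate 3 alone reached into the middle of the Z+ range. The change in Z+ compared with A+ was 0.66 (SE 0.21, adjusted p = 0.042), that in Z+ compared with Z- was 0.24 (SE 0.21, adjusted p = 0.48), and Z- livers differed from A- livers by 0.47 (SE 0.21, adjusted p = 0.28). By mean, shmt2 was ordered Z+, Z-, A+ and A-, at 77.3 ± 17.7, 65.3 ± 14.9, 48.8 ± 14.8 and 47.1 ± 10.6 CPM (SD, n = 6 each), and neither Z+ and Z- nor A+ and A- differed past the threshold, while Z- was not tested against A+.

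These 3 calls were close to the threshold. When each of the 24 fish was left out in turn, trib3 stayed called in 23 fits, ddit3 in 14 and shmt2 in 12. The fold changes ranged from 0.58 to 0.84 for trib3, from 0.87 to 1.09 for ddit3 and from 0.56 to 0.83 for shmt2, and the highest adjusted p was 0.052 for trib3 (without Z+ replicate 2), 0.070 for ddit3 (without Z+ replicate 6) and 0.11 for shmt2 (without Z+ replicate 2). Without A+ replicate 2, Z+ replicate 5 and Z- replicate 2 only trib3 was called, without the 4 fish with intestinal markers none of the 3 was (ddit3 0.89, trib3 0.47 and shmt2 0.52), and without the 3 fish highest in exocrine pancreas markers only ddit3 was (1.07, adjusted p = 0.035), with trib3 at 0.64 (adjusted p = 0.057) and shmt2 at 0.63 (adjusted p = 0.067). With scaling by library totals alone none was called (0.83, 0.63 and 0.53). In the other direction, voom also called chac1 in this comparison (1.11, adjusted p = 0.029), and a vitellogenin covariate also called asns, lower in Z+ (-0.69, adjusted p = 0.049).

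**Figure D2:**
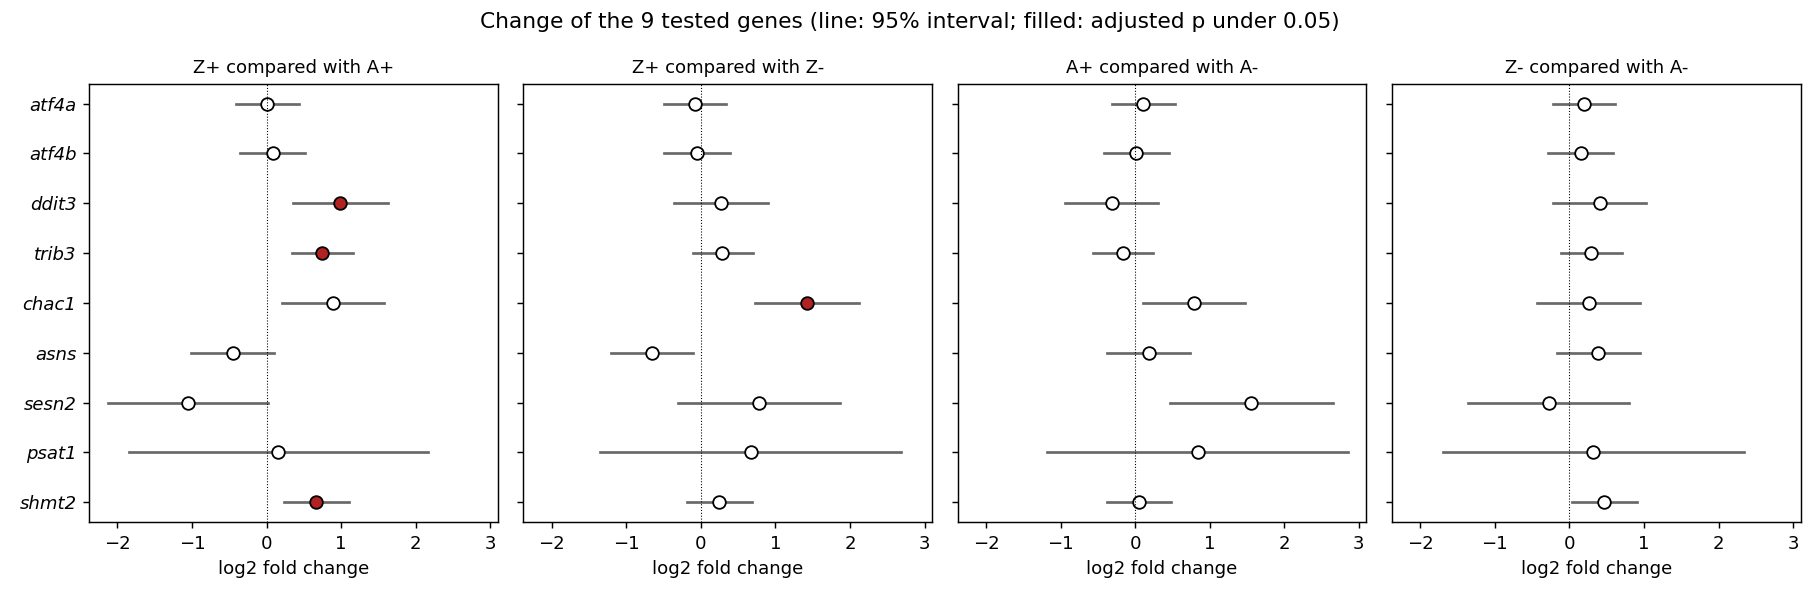
Points give the log2 fold change of the 9 genes that passed the filter in 4 comparisons, lines its 95% interval, and filled points the genes with an adjusted p under 0.05. Calls are ddit3, trib3 and shmt2 in Z+ compared with A+ and chac1 in Z+ compared with Z-, and both atf4 copies sit near 0 in all 4 panels.

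The gene for asparagine synthetase, asns, the best known target of ATF4 under amino acid shortage in mammals, was not called higher in Z+ livers, and its fold changes there were negative. The lowest, median and highest values were 12.0, 16.8 and 39.9 CPM in Z+, 22.5, 38.7 and 42.1 in Z-, 23.3, 30.0 and 36.9 in A+ and 19.3, 28.9 and 30.0 in A-. The Z+ fish were spread more widely, with an SD of log2 CPM of 0.77, against 0.39 in Z-, 0.28 in A+ and 0.27 in A-. Replicates 1, 2 and 3 stood at 13.0, 12.5 and 12.0 CPM, below all 18 fish of the other genotypes, replicate 6 at 20.5, and replicates 4 and 5 at 33.9 and 39.9 CPM. The change was -0.66 (SE 0.27, adjusted p = 0.11) in Z+ compared with Z- and -0.45 (SE 0.27, adjusted p = 0.28) in Z+ compared with A+, neither of them past the threshold. Z+ replicate 5, the fish with about as much vitellogenin as all other transcripts together, held the highest Z+ value, and without it the change against Z- was -0.92 (adjusted p = 0.016). Z- replicate 2, with vitellogenin at 49.2% of reads, likewise held the highest Z- value (42.1 CPM). Without both of these fish and A+ replicate 2 the change against Z- was -0.85 (adjusted p = 0.026). Limma's voom with sample weights also called asns lower against Z- (-0.88, adjusted p = 0.0073). A+ compared with A- gave 0.18 (SE 0.27, adjusted p = 0.71). The step of asns in the Z line differed from that in the A line by -0.83 (SE 0.38, unadjusted p = 0.037 and adjusted p = 0.20 over all genes), which did not pass.

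Both chac1 and asns are targets of ATF4 in mammals, and they had fold changes of opposite sign in Z+ compared with Z-. Fish by fish, Z+ replicates 1, 2 and 3 combined the lowest asns with chac1 at 206, 241 and 242 CPM, and Z+ replicate 4 combined the lowest chac1 of its group with asns at 33.9 CPM. Z+ replicate 5 was high in both. Deviations of the 2 genes from their genotype means over all 24 fish gave r = -0.14 (permutation p = 0.60, adjusted p = 0.84). By rank, rho was -0.17 (permutation p = 0.47, adjusted p = 0.77), so an opposite course of the 2 genes within genotypes was not shown.

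Sesn2, a stress-induced brake on the growth kinase mTORC1, was a low transcript in most fish. Its values ran from 1.68 over a median of 2.49 to 4.90 CPM in Z+, from 0.847 over 1.73 to 2.08 in Z-, from 1.32 over 2.56 to 22.2 in A+ and from 1.52 over 1.83 to 2.82 in A-. Only 7 of 24 fish had counts above 100, of which 3 were Z+ fish. A+ replicates 2 and 1, at 22.2 and 5.13 CPM, were the highest, and they were also the fish with the most egg markers, at 5420 and 240 RPM. A+ replicate 1 held in addition the most exocrine pancreas markers of all fish (34400 RPM), and A+ replicate 2 had 729 RPM of them. The change was -1.06 (SE 0.52, adjusted p = 0.19) in Z+ compared with A+ and 1.56 (SE 0.52, adjusted p = 0.058) in A+ compared with A-. Without A+ replicate 2 these became 0.09 and 0.40, so that both rest on that fish. Z+ compared with Z- gave 0.78 (SE 0.52, adjusted p = 0.34). Z+ replicates 3, 4, 5 and 6 (2.84, 2.14, 4.90 and 3.70 CPM) lay above all Z- fish, and replicates 1 and 2 lay among them.

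Serine is made from a glycolysis intermediate by phgdh, the entry enzyme, and psat1, the step after it, and both had few reads in most livers. The counts of phgdh lay between 1 and 1899, with more than 100 in 2 fish, A+ replicate 2 (31.1 CPM) and A+ replicate 1 (5.11 CPM). In Z+, Z- and A- livers its highest values were 0.854, 0.854 and 0.727 CPM, and the lowest counts of 1 or 2 reads are below the limit of 3 counts that a single library can tell from none. The A+ fish with the most phgdh were the same that held egg markers, in the same order (5420 RPM in A+ replicate 2, 240 in A+ replicate 1 and 104 in A+ replicate 3, where phgdh was 1.28 CPM). Exocrine pancreas markers in these 3 fish were at 729, 34400 and 1240 RPM. Z- replicate 5 and Z+ replicate 3, with 94.6 and 85.0 RPM of egg markers, had phgdh at 0.854 and 0.553 CPM, although Z+ replicate 5 reached 0.854 and A- replicate 6 reached 0.727 CPM with at most 1.38 RPM. In a fit without a filter, over 25906 genes, phgdh was called in A+ compared with A- (4.66, SE 1.24, adjusted p = 0.025) and also for Z+ against A+ (-4.20, SE 1.21, adjusted p = 0.036), and without A+ replicate 2 in neither (2.53, adjusted p = 0.17, and -2.13, adjusted p = 0.22).

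For psat1 the lowest, median and highest values were 0.223, 1.18 and 24.4 CPM in Z+, 1.04, 1.73 and 9.81 in Z-, 0.708, 1.12 and 18.5 in A+ and 0.899, 2.19 and 5.17 in A-. Counts above 100 were found in 7 of 24 fish. The highest values in Z+, Z- and A+ belonged to the libraries named above, Z+ replicate 5 and Z- replicate 2 with vitellogenin at 51.6% and 49.2% of reads and A+ replicate 2 with egg transcripts, and every other fish was at 5.17 CPM or less. The change was 0.16 (SE 0.96, adjusted p = 0.93) in Z+ compared with A+ and 0.67 (SE 0.97, adjusted p = 0.71) in Z+ compared with Z-, and without Z+ replicate 5 it was -2.14 and -1.62, with adjusted p values of 0.089 and 0.18. No direction can be given for psat1. The part of the egg and vitellogenin transcripts in these values was not tested.

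**Figure D3:**
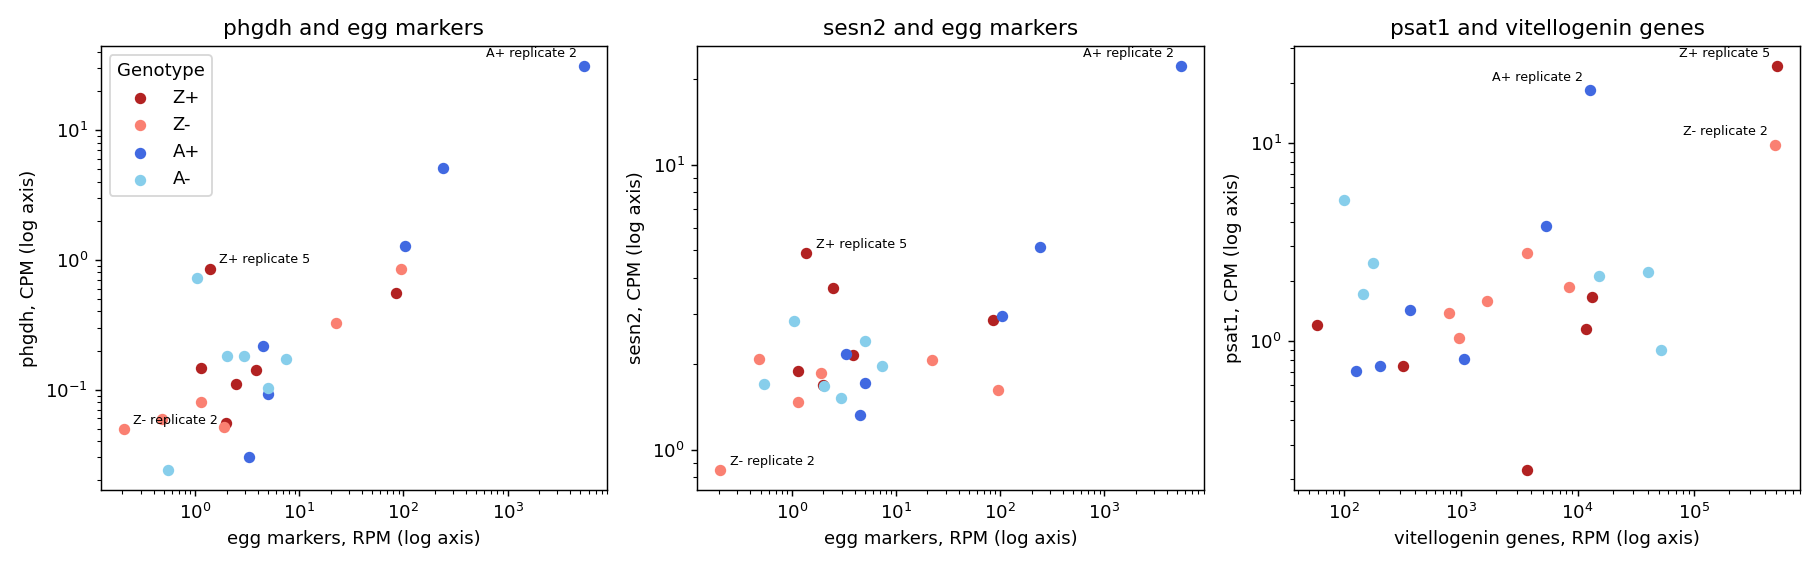
Each point is 1 fish, coloured by genotype, with marker reads per 1000000 counted reads (RPM) on the horizontal log axis and the level in CPM on the vertical log axis. The left and middle panels set phgdh and sesn2 against 12 ovary and egg markers, and the right panel sets psat1 against 7 vitellogenin genes. A+ replicate 2 (5420 RPM of egg markers) is highest for phgdh (31.1 CPM) and sesn2 (22.2 CPM), and Z+ replicate 5 is highest for psat1 (24.4 CPM).

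None of the 9 genes was called by edgeR in A+ compared with A-, where 10.1% of all genes were, in Z- compared with A- (1.17% of all genes) or in the interaction of line and transgene (0.525%). At an unadjusted p under 0.05 there were 2 in A+ compared with A- (chac1 and sesn2), 1 in Z- compared with A- (shmt2) and 1 in the interaction (asns). The share of all genes at that unadjusted threshold is not given here, so these counts cannot be set against it. DESeq2 called 1 member in A+ compared with A- (sesn2) and 0 in the other comparisons named here, and voom called 0 in all of them. Of all 11801 genes, DESeq2 called 1815 in A+ compared with A-, 660 in Z- compared with A- and 943 in the interaction. Voom called 1320, 319 and 476 in the same order. Z+ compared with A+ and Z+ compared with Z- share the Z+ fish, so their values are not independent. Set side by side, the median of the 9 fold changes was 0.16 in Z+ compared with A+, 0.27 in Z+ compared with Z- and 0.11 in A+ compared with A-, beside -0.02, 0.03 and 0.00 over all genes tested. In Z- compared with A-, where neither group carries a transgene, this median was 0.29, with 8 of 9 positive, beside -0.01 over all genes tested.

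The genes also differed in how far fish of 1 genotype varied. The SD within genotype of log2 CPM was 0.33 for trib3, 0.34 for atf4a, 0.36 for shmt2, 0.37 for atf4b, 0.47 for asns, 0.54 for ddit3 and 0.58 for chac1, beside a median of 0.47 over all genes tested. It was 0.85 for sesn2, 1.59 for psat1 and 2.1 for phgdh. The highest fish exceeded the lowest by 2.42-fold for atf4a, 6.55-fold for chac1, 26.2-fold for sesn2 and 109-fold for psat1.

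Among 36 pairs of the 9 tested genes, deviations from the genotype mean were compared over the 24 fish with 100000 permutations within genotype. No pair had an adjusted p under 0.05 by both Pearson's r and Spearman's rho. The strongest, atf4a with psat1, had r = 0.76 (permutation p = 0.00048, adjusted p = 0.017) and rho = 0.53 (permutation p = 0.016, adjusted p = 0.13), and r was 0.55 without the 2 fish farthest from the median. Deviations of chac1 did not follow those of atf4a (r = 0.00, permutation p = 0.99, adjusted p = 0.99, rho = 0.04).

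Over all 24 fish, the genes whose log2 CPM was most like a member's by Spearman's rho were jund for ddit3 (0.89), with si:ch211-91p5.3 and nocta (0.80 each), and bag3 for trib3 (0.87), with sh2d3cb (0.85) and lonrf1l (0.83). For asns they were tia1l (0.94), eif2b1 (0.93) and tmed2 (0.93), among which eif2b1 is a subunit of the exchange factor that acts on eIF2. For chac1 they were shprh (0.75), irs2a and si:dkey-184a18.5 (0.74 each), and for shmt2 klhdc3 (0.80), tab1 (0.79) and atg13 (0.77). The copies of the factor had different companions, thoc5 (0.88), cpsf1 (0.87) and xrn2 (0.85) for atf4a, which handle RNA, and gpt2l (0.75), ppap2d and tuba8l2 (0.74 each) for atf4b. For sesn2 they were si:ch211-165g14.1, si:dkey-229b18.3 (0.76 each) and stx3a (0.74), and for psat1 gtpbp1 (0.80), ccdc6b and jtb (0.77 each). These values describe the fish, which share genotype and library composition, and carry no test.

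The other genes of the pathway were taken from lists, each described by its counts and its median. Over all genes tested, 11.8% were called in Z+ compared with A+, 12.2% in Z+ compared with Z- and 10.1% in A+ compared with A-. In Z+ compared with the mean of Z- and A- the share was 16.8%, and the calls below stand beside these shares. The gene for GCN2, eif2ak4, was not found by that name in the count table and was not tested. Of 12 tested genes of the eIF2 kinases, eIF2 and its phosphatase, eif2s1a, a gene for the subunit that the kinases phosphorylate, fell in Z+ compared with A+ (-0.55, SE 0.16, adjusted p = 0.030) and also relative to Z- (-0.50, SE 0.16, adjusted p = 0.043). These calls were kept in 21 (against A+) and 15 (against Z-) of 24 fits that left out 1 fish. The kinase gene eif2ak2 (PKR) was higher in Z+ compared with A+ (0.63, SE 0.21, adjusted p = 0.0497), in a call kept in 3 of 24 fits that left out 1 fish. The median log2 fold change of this list in Z+ was -0.02 against A+ and -0.10 against Z-. Of 5 eIF2B subunits only eif2b2 was called, in A+ compared with A- (0.49, SE 0.16, adjusted p = 0.047), and not without A+ replicate 2 (0.35, adjusted p = 0.11).

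Among 8 tested bZIP partners and related factors, 2 fell in A+ compared with A-, nupr1 was lower in Z+ compared with the mean of Z- and A-, and none was called in Z+ compared with A+ or with Z-. The stress-induced regulator nupr1 stood at 8.92 to 22.8 CPM in A+ and at 78.2 to 176 CPM in A- livers, with no overlap, as for 2.73% of all genes tested in that comparison. Its change was -2.92 (SE 0.44, adjusted p = 0.0014), the lowest adjusted p of any pathway gene in that comparison. In Z+ livers nupr1 ran from 8.40 to 66.0 CPM and in Z- livers from 27.0 to 102 CPM. Its means were 26.6 CPM in Z+, 52.4 in Z-, 16.9 in A+ and 128 in A- livers, so A- was the highest group. Z- compared with A-, where neither group carries a transgene, gave -1.29 (SE 0.42, adjusted p = 0.13). Z+ compared with Z- gave -0.98 (SE 0.41, adjusted p = 0.12). Against the mean of Z- and A- the change of nupr1 in Z+ was -1.62 (SE 0.38, adjusted p = 0.0054). Both calls of nupr1 include the A- fish, and both held in all 24 fits that left out 1 fish. The ATF4 partner cebpg fell in A+ compared with A- by 0.84 on the log2 scale (SE 0.22, adjusted p = 0.023).

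Of 9 tested serine, glycine and one-carbon enzymes besides the members, mthfd1a alone was called in Z+ compared with A+ (0.97, SE 0.32, adjusted p = 0.0497, kept in 4 of 24 fits that left out 1 fish), and none in Z+ compared with Z- or A+ compared with A-. Against the mean of Z- and A-, psph was called lower in Z+ (-0.51, SE 0.17, adjusted p = 0.044), in 12 of 24 such fits. Of 7 amino acid transporters, slc3a2b, the shared heavy chain of amino acid exchangers, fell in A+ compared with A- (-1.46, SE 0.39, adjusted p = 0.024). No other call of a transporter was made in Z+ compared with A+, Z+ compared with Z- or A+ compared with A-. Of 12 proline, aspartate, alanine and transsulfuration enzymes, got2b, a mitochondrial aspartate aminotransferase, fell in Z+ compared with Z- (-0.59, SE 0.15, adjusted p = 0.015), in all 24 fits that left out 1 fish. It was also called lower in A+ compared with A- (-0.50, SE 0.15, adjusted p = 0.039), which held in 13 of those fits and not without A+ replicate 2 (-0.44, adjusted p = 0.071). The medians of these 3 lists in Z+ compared with Z- were -0.06, 0.32 and -0.35.

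The 13 tested cytosolic tRNA synthetases, which are ATF4 targets in mammals, held no called gene in any of the 6 comparisons. All 13 had a negative fold change in Z+ compared with Z-, with a median of -0.43, and all 13 a positive one in Z- compared with A-, with a median of 0.38, so the shared Z- fish enter both. In Z+ compared with A+ the median was 0.11, with 8 of 13 positive. The methionine member, listed as mars, gave -0.79 (SE 0.29, adjusted p = 0.070) in Z+ compared with Z-. It neighbours ddit3 in the RefSeq annotation of assembly GRCz12tu, where ddit3 itself gave 0.27.

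Among other stress targets, fgf21 and gdf15 were not found by these names in the count table. Of 9 tested other stress targets, trib1, a relative of trib3, was higher in Z+ compared with Z- (0.97, SE 0.27, adjusted p = 0.020), at 13.1 to 25.8 CPM in Z+ and 5.11 to 14.4 CPM in Z- livers. Its mean was 17.9 CPM in Z+ and 17.7 CPM in A+ livers, and Z+ compared with A+ gave 0.02 (SE 0.26, adjusted p = 0.97). A+ compared with A- gave 0.78 (SE 0.26, adjusted p = 0.062), and the interaction gave 0.19 (SE 0.37, adjusted p = 0.79). A further sestrin, sesn1, was also higher in Z+ compared with Z- (1.27, SE 0.38, adjusted p = 0.033). Its means were 23.2 CPM in Z+, 9.58 in Z-, 15.7 in A+ and 21.3 in A- livers, so Z- was the lowest group. Z- compared with A- gave -1.15 (adjusted p = 0.13). In Z+, sesn1 was not called against A+ (0.56, adjusted p = 0.36) or the mean of Z- and A- (0.70, adjusted p = 0.14). The call against Z- was kept in 18 of 24 fits that left out 1 fish. In Z+ compared with A+ sesn3 was higher (1.57, SE 0.48, adjusted p = 0.038), in 15 of those fits and not without A+ replicate 2 (1.45, adjusted p = 0.060). The fish with intestinal markers held the highest sesn3 values of their genotypes, at 15.7 and 15.2 CPM in Z+ replicates 6 and 3, 9.0 in A+ replicate 5 and 23.8 in A- replicate 6, and without these 4 fish the change was 1.72 (adjusted p = 0.013). The lipoprotein receptor gene vldlr was called lower in Z+ compared with A+ (-4.27, SE 1.20, adjusted p = 0.027) and higher in A+ compared with A- (4.64, SE 1.22, adjusted p = 0.022). A+ replicate 2 held 175 CPM of it, and without that fish neither call was made (-1.93, adjusted p = 0.17, and 2.28, adjusted p = 0.12).

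As a comparison with the other branches of the unfolded protein response, 16 ER chaperones and regulators of the ATF6 and XBP1 branches were taken. The co-chaperone gene dnajb9a was higher in Z+ compared with Z- (1.71, SE 0.41, adjusted p = 0.0098) and in A+ compared with A- (2.2, SE 0.42, adjusted p = 0.0053). It stood at 2.56 to 7.65 CPM in Z+ and 0.942 to 4.33 CPM in Z- livers, and at 1.92 to 11.5 CPM in A+ and 0.877 to 2.01 CPM in A- livers. Of the disulfide isomerases, pdia6 was lower in Z+ compared with A+ (-1.22, SE 0.30, adjusted p = 0.016) and pdia4 was higher in A+ compared with A- (1.64, SE 0.44, adjusted p = 0.023). The sensor gene atf6 was higher in Z+ compared with A+ (1.34, SE 0.41, adjusted p = 0.039), and not without Z+ replicate 5 (0.88, adjusted p = 0.11). The median of the list was 0.63 in A+ compared with A-, with 15 of 16 positive, and -0.28 in Z+ compared with Z-, with 4 of 16 positive. In Z- compared with A-, where neither group carries a transgene, it was 0.71, also with 15 of 16 positive, and A- livers thus had the lower level of most of these genes in both comparisons. The median was -0.25 in Z+ compared with A+, with 3 of 16 positive.

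List genes held 20 calls in Z+ compared with A+, Z+ compared with Z- and A+ compared with A-. Of all genes tested, 11.8%, 12.2% and 10.1% were called there, in that order. The 20 calls were repeated without the fish that stood apart. Of these, 13 were kept without A+ replicate 2, Z+ replicate 5 and Z- replicate 2, 9 without the 4 fish with intestinal markers and 13 without the 3 fish highest in exocrine pancreas markers. The calls made in all these fits, and without each of these fish singly, were 4, those of trib1 in Z+ compared with Z-, nupr1 in A+ compared with A- and dnajb9a in both.

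**Figure D4:**
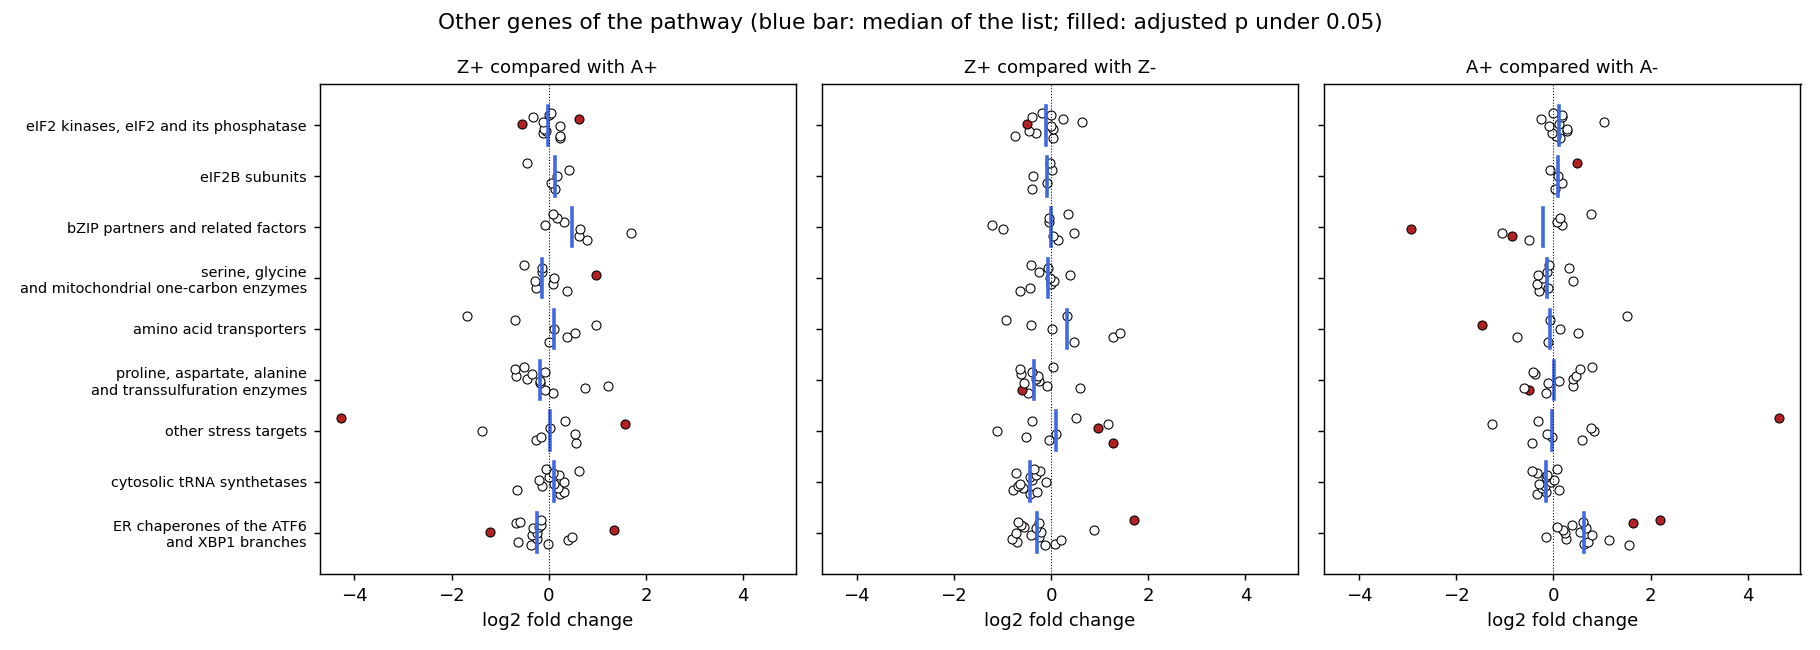
Each row is a list of other pathway genes and each point a gene, with the log2 fold change on the horizontal axis for Z+ compared with A+, Z+ compared with Z- and A+ compared with A-. Blue bars are list medians and filled points are genes with an adjusted p under 0.05. All 13 tRNA synthetases lie left of 0 in Z+ compared with Z-, 15 of 16 ER chaperones lie right of 0 in A+ compared with A- (as in Z- compared with A-, not drawn), and nupr1 (-2.92) and vldlr (4.64) are the outer points of the right panel.

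The level of the transgene was set against each of the 9 genes within Z+ and within A+ fish, 18 relations of 6 fish each. In Z+ fish atf4a was lowest where the transgene was highest, in exact reverse order (rho = -1.0, r = -0.88, exact two-sided permutation p = 0.0028 for both, the smallest value that 6 fish allow), and r was -0.84 without the 2 fish farthest from the median. Adjusted over the 18 relations its p was 0.05, not under the threshold. As 0.0028 is the smallest p possible here, no single relation could pass alone, so the adjustment cannot decide. In A+ fish r was -0.76 (exact permutation p = 0.16, adjusted p = 0.31) and rho was -0.49 (exact permutation p = 0.36, adjusted p = 0.59). For chac1 in Z+ fish r was -0.04 (exact permutation p = 0.78, adjusted p = 0.80).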

How the data were processed

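Liver poly(A) RNA of 24 zebrafish was sequenced by the authors from stranded libraries. Per the labels and the study's methods, reads were aligned with STAR to GRCz11 with the transgene added and counted with featureCounts. The deposited values are counts per gene without normalization, and the strand setting of the counting is not given in the sources used here, so reads of overlapping genes may be shared. Groups were read from the labels. Sequencing was spread over runs that the labels do not assign to fish, so run could not be modelled. All 24 fish were kept, whereas the paper left out fish that it judged to be outliers and that its main text does not name.

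The 11801 genes that exceeded 100 reads in 3 fish or more were fitted with edgeR 4.0.16 (R 4.3.3, TMM scaling, 1 quasi-likelihood model of 4 genotype means), the study's own test being made for RPKM values. The 6 comparisons were Z+ with A+, Z+ with Z-, Z+ with both non-transgenic groups averaged, A+ with A-, Z- with A-, and the interaction (Z+ minus Z-, less A+ minus A-). Log2 CPM had a prior count of 1. P-values measure the spread between these fish. The fitting steps were run on simulated counts with less spread between fish than these data and larger changes than those of the called members. That run does not show how calls near the threshold fare.

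The members and lists were chosen with earlier results of these data known. Besides the members, a list contributed at most 3 names, its called genes with the lowest adjusted p in Z+ with A+, Z+ with Z- or A+ with A-, and each tested member the 3 genes most like it by Spearman's rho. Outside this rule, sesn3, psph, atf6, mars and single marker values were named after their values were seen. Alternatives were DESeq2 1.42.0, its size factors, library totals, no filter, filterByExpr, a replicate block, a vitellogenin covariate, voom (limma 3.58.1), only the groups compared, each fish left out, and 3 sets of fish with marker transcripts left out (added after the data were seen). A planned search for promoter motifs was not run here.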

Additional observations from a re-analysis of the deposited data

Results flagged for a closer look

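Dixon's test was applied to log2 CPM in 40 groups of 6 fish (10 genes in 4 genotypes). On that scale 1 group held a fish whose distance from the next was beyond the 95% limit, where chance gives about 1 in 20. This was chac1 in Z+ replicate 4, at 81.7 CPM against 175 CPM in the next lowest Z+ fish. The gap was 0.702 of the group's range in log2 CPM. Without this fish chac1 in Z+ compared with Z- gave 1.58, against 1.43 with it. In that fish asns stood at 33.9 CPM, the transgene entry at 3620 CPM and intestinal markers at 15.1 RPM (reads per 1000000 counted reads), and none of these was tested as a source of the low value.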

How the results depend on the processing

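The main limits are the single line per transgene, the unknown run of each fish and the libraries that stand apart. With scaling by library totals alone the median of all genes moved by -0.19 in Z+ compared with A+ and by -0.11 in Z+ compared with the mean of Z- and A-, and without a filter by -0.11 in Z+ compared with Z-. The counts and fold changes below are to be read against those shifts. A fold change of sesn2, psat1 or phgdh rests on few reads in most fish.

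Members called in Z+ compared with A+ (3 as reported) were 0 with library totals, 1 with only the groups compared, 1 without the 3 libraries that stand apart 1 without the fish with intestinal transcripts, which was chac1, and 1 without the fish with exocrine pancreas transcripts, which was ddit3. They were 4 with voom (chac1 added), 4 with the vitellogenin covariate (asns added, lower) and 4 with filterByExpr (phgdh added, lower), and 0 to 3 when single fish were left out. Of all 11801 genes, 1397 were called as reported, 909 with library totals, 338 with only the groups compared, 1976 with voom and 2206 with the covariate. FilterByExpr called 2010 of 16255. Calls were 2217 of 11538 without the 3 libraries and 561 to 1621 without single fish. Without the fish with intestinal transcripts they were 985 of 11205, and without those with exocrine pancreas transcripts 960 of 11451. In Z+ compared with Z- (1 as reported) members called were 0 with library totals, 2 with the vitellogenin covariate, 2 with voom and 2 without the 3 libraries, in each case with asns lower, and 1 to 2 without single fish. Of all 11801 genes, 1436 were called there as reported, 489 with library totals, 1882 with the covariate and 3064 with voom. Calls were 2397 of 11538 without the 3 libraries and 871 to 2188 without single fish. In Z+ compared with the mean of Z- and A-, edgeR as reported gave 0.44 for trib3 (adjusted p = 0.070), 0.48 for shmt2 (adjusted p = 0.066) and -0.47 for asns (adjusted p = 0.19). Members called there (1 as reported) were 2 with the covariate (trib3 added) and 2 with only the groups compared (shmt2 added). They were 4 with voom and 4 without the 3 libraries, in both cases with trib3 and shmt2 added and asns lower, and 1 to 3 without single fish. Calls over all genes rose in these settings too. Of 11801 genes, 1985 were called as reported, 2462 with the covariate, 3423 with voom and 2598 with only the groups compared. Calls were 3136 of 11538 without the 3 libraries and 1264 to 2732 without single fish. In A+ compared with A- (0 as reported) members called were 1 with DESeq2 and 1 with the covariate (sesn2), 1 without a filter and 1 with filterByExpr (phgdh), and 0 to 1 without single fish. Of all 11801 genes, 1196 were called there as reported, 1815 with DESeq2 and 1841 with the covariate. Calls were 2182 of 25906 without a filter, 1811 of 16255 with filterByExpr and 500 to 1500 without single fish. The alternatives that leave out 3 libraries or the fish with intestinal or exocrine pancreas transcripts were chosen after seeing the data.

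Fold changes of atf4a, atf4b, shmt2, sesn2 and psat1 turned sign in some settings, among them values not near 0, such as psat1 in A+ compared with A- (0.84 as reported) and sesn2 in Z+ compared with A+ (-1.06) and in the interaction (-0.78). Those of atf4a, atf4b and psat1 in Z+ compared with A+ were -0.33, -0.04 and -0.93 with library totals, and -0.10 (atf4a) and -1.13 (psat1) with the covariate. There, voom gave -0.09 for atf4b and -0.43 for psat1, DESeq2 and its size factors gave -0.02 for atf4a, leaving out the 3 libraries gave -0.12 for atf4b and -0.59 for psat1, and leaving out the fish with intestinal or with exocrine pancreas transcripts gave -0.04 and -0.02 for atf4a. In Z+ compared with Z-, psat1 was -0.87 with voom and -0.79 without the 3 libraries. In Z+ compared with the mean of Z- and A-, psat1 was -0.43 with the covariate, -0.98 with voom and -1.04 without the 3 libraries. In that comparison atf4b was -0.10 with library totals, -0.04 without a filter, -0.02 with filterByExpr, -0.03 with voom, -0.02 without the 3 libraries and -0.05 without the fish with intestinal transcripts, and atf4a was -0.09, -0.04, -0.03, -0.04, -0.06 and 0.00 in the same settings and 0.00 with the covariate. In A+ compared with A-, psat1 was -0.65 with voom and -0.69 without the 3 libraries, atf4a -0.11 and -0.10 in the same settings, atf4b -0.03 with library totals, -0.01 with filterByExpr and -0.14 without the fish with intestinal transcripts, and shmt2 -0.01 without those fish and -0.01 without the fish with exocrine pancreas transcripts. In Z- compared with A-, psat1 was 0.00 with library totals, -1.10 with the covariate, -0.21 with voom and -0.49 without the 3 libraries, and sesn2 was 0.00 with voom. In the interaction, sesn2 was 0.03 without the 3 libraries, and psat1 and atf4b were 0.04 each without the fish with intestinal transcripts.

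Leaving out single fish gave atf4a from -0.13 to 0.21 in Z+ compared with A+, from -0.21 to 0.01 against Z-, from -0.11 to 0.11 against the mean of Z- and A-, from -0.10 to 0.19 in A+ compared with A- and from -0.33 to 0.02 in the interaction. For atf4b the ranges were -0.05 to 0.21, -0.14 to 0.06, -0.06 to 0.13, -0.11 to 0.14 and -0.20 to 0.06, and for psat1 -2.14 to 1.69, -1.62 to 1.5, -1.45 to 1.26, -0.69 to 1.20 and -2.47 to 1.36, with -0.49 to 0.68 in Z- compared with A-. For sesn2 they were -1.29 to 0.09 in Z+ compared with A+ and -1.02 to 0.37 in the interaction, and for shmt2 -0.12 to 0.16 in A+ compared with A-. The cause was not tested. Of the 1935 values of single genes under all alternatives, 106 turned sign, 38 lost a call and 29 gained one.

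Replicate numbers are shared by the genotypes, but nothing in the labels ties same-numbered fish together, and 13 of 36 same-numbered pairs deviated together with a correlation over 0.1 (range -0.45 to 0.77). In 6 of the 36 pairs the same-numbered fish was the best match among the 6 fish of the other genotype, where 1 in 6 would arise without any pairing. With the replicate block, 2 members were called in Z+ compared with A+ (shmt2 at 0.67 was not) and psat1 was -0.23 there. Over all genes the block gave 788 calls in Z+ compared with A+, against 1397 without it, and 568 in A+ compared with A-, against 1196. Counts over all genes ran from 338 (only the groups compared) to 2305 (no filter) in Z+ compared with A+, from 489 (library totals) to 3064 (voom) in Z+ compared with Z-, from 1059 to 3423 in the same settings against the mean of Z- and A-, from 133 (only the groups compared) to 2182 (no filter) in A+ compared with A-, from 70 (without the fish with exocrine pancreas transcripts) to 660 (DESeq2) in Z- compared with A- and from 1 (library totals) to 943 (DESeq2) in the interaction.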
